A study of Homo sapiens with 9 samples.

Results

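The receptor chains IL6R, IL6ST, LIFR and OSMR, the transcription factor STAT3 and the feedback inhibitors SOCS1 and SOCS3 were examined in 3 lines of T47D, an established human luminal breast cancer cell line. These 7 genes, of 43395 on the arrays, were taken by name, and they are represented by 16 of 58201 probes. The lines had been transfected with the pTARGET vector and selected with G418 for stable expression. T47D-VC1 has the empty vector. In T47D-PA6 the insert spans all of the long noncoding RNA PTH-AS, and in T47D-PA5 the insert is without some 5′ sequence of the transcript. Each construct is represented by 1 selected line, so construct and selected line cannot be told apart. RNA of each line was hybridized to 3 single-color arrays, 9 in all, and neither the labels nor the methods state whether the replicates of a line are separate cultures, so p-values may measure only technical spread. T47D-PA6 against T47D-VC1 addresses the effect of full-length PTH-AS, and T47D-PA5 serves as a further control for the introduced fragment.

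Cytokines of the interleukin 6 family bind a ligand-specific chain, such as IL6R for interleukin 6, and signal through the shared chain IL6ST, also called gp130. LIFR and OSMR pair with IL6ST for leukemia inhibitory factor and oncostatin M. Janus kinases bound to these chains phosphorylate STAT3, which enters the nucleus and induces, among other genes, SOCS3, whose protein blocks the receptor and kinase again. SOCS1 is a related inhibitor that is induced by interferons as well as by interleukin 6.

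Signals are quantile-normalized fluorescence intensities in arbitrary units. A line's mean is the geometric mean of its 3 arrays, with its SD on the log2 scale. Only probes that Feature Extraction, the image software, marked as well above background on all arrays of some line were tested, and 15 of the 16 passed. Of the 7 genes, 6 were tested, and LIFR was not. A gene was read from its brightest tested probe, here called probe a where there are several. One limma fit over the 9 arrays gave the 3 comparisons. P-values were adjusted over the 20106 genes tested, and a gene was called when the adjusted p-value was under 0.05. Slide 1 carried replicate 1 of every line and was scanned in an earlier run. Replicate 2 of T47D-VC1 and of T47D-PA5 were on slide 2, and the other 4 arrays were on slide 3.

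In T47D-PA6 compared with T47D-VC1, OSMR and SOCS1 were higher and IL6R was lower, 3 of the 6 genes tested, whereas 10.03% of all genes tested were called. In T47D-PA5 compared with T47D-VC1, 1 of the 6 was called, IL6R, which was higher, beside 1.67% of all genes. T47D-PA6 and T47D-PA5 differed in IL6R and OSMR, 2 of the 6, beside 9.71% of all genes. With so few genes these shares are not results about the group as a whole. All 3 comparisons share arrays and are not independent.

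**Figure D1:**
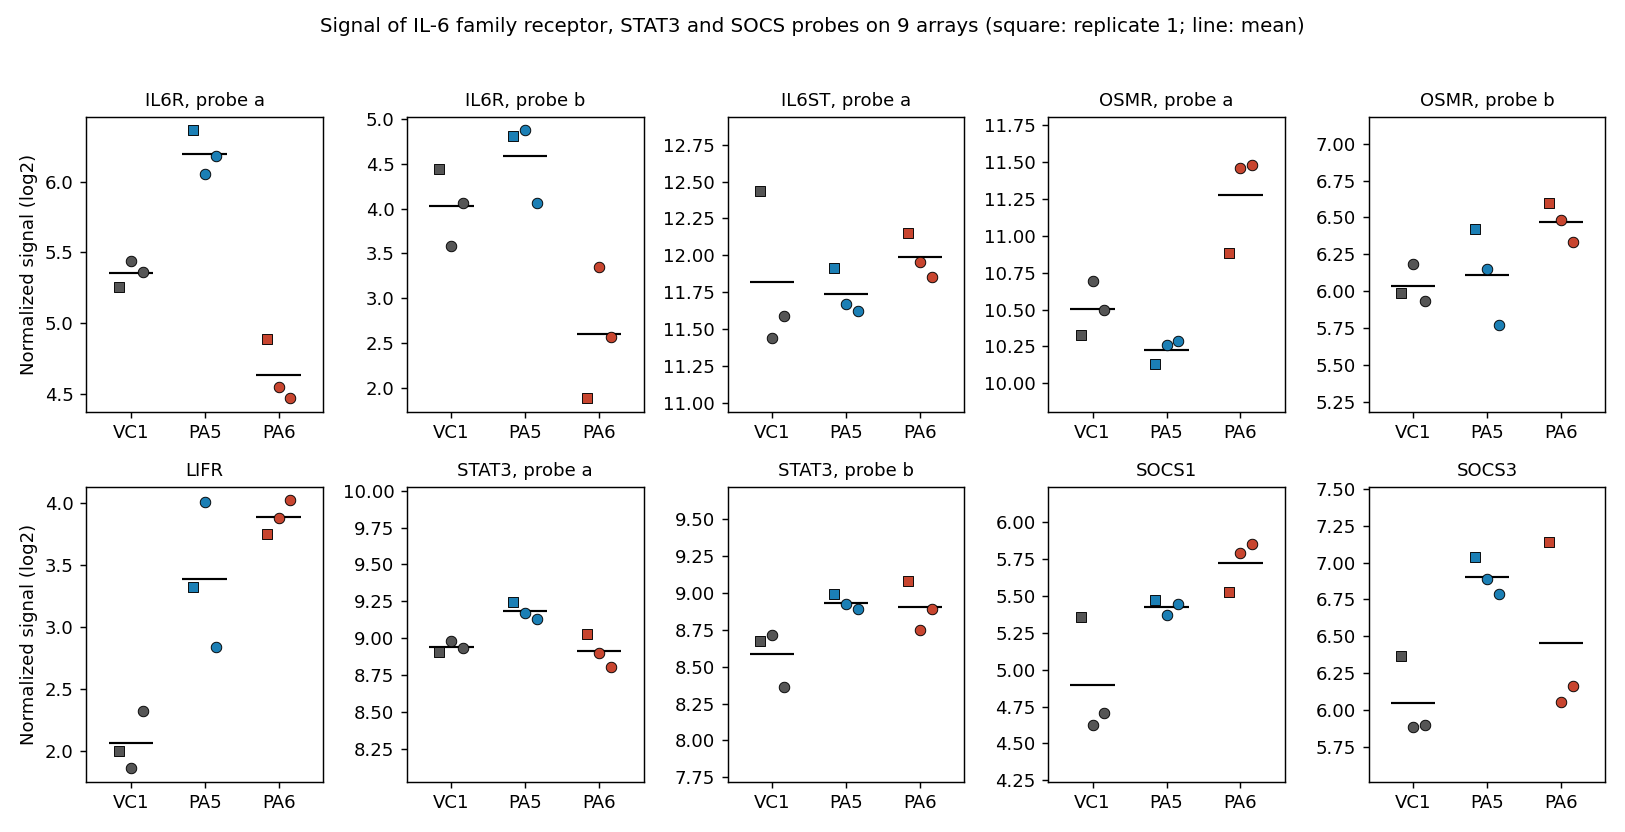
Normalized signal (log2, vertical axis) of 10 probes on the 9 arrays by line (horizontal axis). Each point is 1 array, squares are replicate 1 and the black line is the mean of a line. IL6R probe a separates the 3 lines, and SOCS1 and SOCS3 have replicate 1 of T47D-VC1 or T47D-PA6 apart from the other replicates.

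IL6R was the gene with the clearest separation. Probe a (chromosome 1, 154440037 to 154440096 on hg19) gave signals of 38.2, 43.3 and 41.2 in T47D-VC1, 82.4, 66.5 and 72.5 in T47D-PA5, and 29.6, 23.3 and 22.1 in T47D-PA6, in the order of replicates 1 to 3. The 3 groups did not overlap, with T47D-PA5 highest and T47D-PA6 lowest. The mean was 40.9 (SD 0.09, n = 3 arrays as for every mean given) for T47D-VC1, 73.5 (SD 0.16) for T47D-PA5 and 24.8 (SD 0.22) for T47D-PA6. T47D-PA6 was 2.96-fold lower than T47D-PA5, a log2 fold change of -1.57 (SE 0.14, limma adjusted p = 0.00117), and 1.65-fold lower than T47D-VC1, a log2 fold change of -0.72 (SE 0.14, limma adjusted p = 0.0168). T47D-PA5 was 1.80-fold higher than T47D-VC1, a log2 fold change of 0.85 (SE 0.14, limma adjusted p = 0.0244).

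The difference in IL6R between T47D-PA6 and T47D-PA5 was called in 21 of 21 other fits, with adjusted p-values of 0.000405 to 0.0337. That between T47D-PA6 and T47D-VC1 was called in 14 of 21 (0.00154 to 0.0987), and that between T47D-PA5 and T47D-VC1 in 12 of 21 (0.00591 to 0.107). The lowest value of each such range, here and below, is from replicates 2 and 3 alone. Of all genes, that fit called 7142, 7469 and 4309 in these 3 comparisons, in the order given. Its spread comes only from replicates 2 and 3, which lay close together. The call against T47D-VC1 was lost for T47D-PA6 without T47D-VC1 replicate 2 (adjusted p = 0.0589) or 3 (0.0659) or T47D-PA6 replicate 2 (0.068) or 3 (0.0713). It was also lost with the 75th percentile shift (-0.58, adjusted p = 0.0644), with the unpaired test (adjusted p = 0.0948) and with normexp background correction (-0.22, adjusted p = 0.0987). For T47D-PA5 it was lost without replicate 1, 2 or 3 of T47D-VC1 (adjusted p of 0.0516, 0.0662 and 0.102) or of T47D-PA5 (0.0501, 0.0642 and 0.103), and with no filter (0.0582), the unpaired test (0.0949) or the mean over probes (0.107). Normexp correction also gave smaller log2 fold changes where the call was kept, 0.40 for T47D-PA5 over T47D-VC1 and -0.61 for T47D-PA6 over T47D-PA5. With slide as a block all 3 were called (adjusted p of 0.0299, 0.0284 and 0.00475 for T47D-PA6 and T47D-PA5 over T47D-VC1 and T47D-PA6 over T47D-PA5). Within slide 1 the log2 difference of T47D-PA6 from T47D-VC1 was -0.37, and within slide 3 it was -0.86. T47D-PA5 differed from T47D-VC1 by 1.11, 0.62 and 0.82 within slides 1, 2 and 3, and T47D-PA6 from T47D-PA5 by -1.48 and -1.67 within slides 1 and 3.

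A further IL6R probe, probe b (chromosome 1, 154407568 to 154407627 on hg19), is assigned by the files to transcript variant 3, while probe a is assigned to variant 1. Probe b was dim, with signals of 21.8, 12.0 and 16.7 in T47D-VC1, 28.2, 29.3 and 16.7 in T47D-PA5, and 3.69, 10.2 and 5.92 in T47D-PA6. Of the arrays well above background, 2 were of T47D-VC1, 3 of T47D-PA5 and 0 of T47D-PA6. The difference from T47D-PA6 is therefore given as an approximate bound. The bound sets the mean of the brighter line against T47D-PA6, with each T47D-PA6 array raised, if dimmer, to its dimmest signal well above background. By this bound T47D-PA5 was 2.03-fold higher than T47D-PA6. T47D-VC1, with 2 of its 3 arrays well above background, was 1.38-fold higher. Signals not well above background can exceed that dimmest signal, as on T47D-PA6 replicate 2 (10.2 against 9.59). Neither fold is therefore a strict minimum. These bounds were not tested: the limma fit over single probes, with an adjusted p of 0.0164 for T47D-PA6 over T47D-PA5 and 0.051 over T47D-VC1, used T47D-PA6 signals that were not well above background. Between T47D-PA5 and T47D-VC1 the arrays of this probe overlapped (log2 fold change 0.55, SE 0.39, adjusted p = 0.554). Both IL6R probes had their lowest signals in T47D-PA6. Those of probe b were not well above background, so their order adds nothing to the result of probe a.

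Over single probes, 3 of the 15 tested were called between T47D-PA6 and T47D-VC1, 1 of 15 between T47D-PA5 and T47D-VC1, and 3 of 15 between T47D-PA6 and T47D-PA5. The last count includes IL6R probe b, for which all T47D-PA6 signals were near background. Of all 26171 tested probes, 10.55%, 1.62% and 9.91% were called in these comparisons. The probes of a gene share its transcripts and are not independent.

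OSMR encodes the oncostatin M receptor chain. Probe a (chromosome 5, 38886589 to 38886648 on hg19), which the files assign to the short transcript variant 2, gave 1287, 1657 and 1444 in T47D-VC1, 1122, 1228 and 1251 in T47D-PA5, and 1894, 2825 and 2863 in T47D-PA6. Every T47D-PA6 array lay above every array of the other lines, with replicate 1 the lowest of the 3. The mean was 1455 (SD 0.18) for T47D-VC1, 1199 (SD 0.08) for T47D-PA5 and 2484 (SD 0.34) for T47D-PA6. T47D-PA6 was 1.71-fold higher than T47D-VC1, a log2 fold change of 0.77 (SE 0.17, limma adjusted p = 0.0297), and 2.07-fold higher than T47D-PA5, a log2 fold change of 1.05 (SE 0.17, limma adjusted p = 0.0093). T47D-PA5 and T47D-VC1 were not called different (log2 fold change -0.28, SE 0.17, limma adjusted p = 0.508), although their arrays did not overlap. This SE pools the spread of all 3 lines, which was largest in T47D-PA6.

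The OSMR call against T47D-VC1 was kept in 11 of 21 other fits (adjusted p of 0.00216 to 0.166), and that against T47D-PA5 in 20 of 21 (0.001 to 0.08). The call against T47D-VC1 was lost without T47D-VC1 replicate 1 (adjusted p = 0.0595) or 3 (0.0968), T47D-PA5 replicate 2 (0.0537) or 3 (0.0545), or T47D-PA6 replicate 2 (0.107) or 3 (0.109). It was also lost with the 75th percentile shift (0.0603), no filter (0.075), the 2 lines alone (0.077) and the unpaired test (0.166), and the call against T47D-PA5 was lost with the unpaired test (0.08). With slide as a block, T47D-PA6 differed from T47D-VC1 by 0.77 (adjusted p = 0.0195) and from T47D-PA5 by 1.05 (adjusted p = 0.00946). Within slides 1 and 3 the log2 difference from T47D-VC1 was 0.56 and 0.98, and from T47D-PA5 it was 0.76 and 1.18.

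Probe b of OSMR (chromosome 5, 38933387 to 38933446 on hg19) is assigned to transcript variant 1. It read 63.5, 72.8 and 61.2 in T47D-VC1, 85.9, 70.9 and 54.4 in T47D-PA5, and 96.9, 89.4 and 80.5 in T47D-PA6. T47D-PA6 lay above T47D-VC1 without overlap but overlapped T47D-PA5, and no comparison was called. The log2 fold change of T47D-PA6 was 0.43 over T47D-VC1 (SE 0.17, adjusted p = 0.145) and 0.36 over T47D-PA5 (SE 0.17, adjusted p = 0.235), and that of T47D-PA5 over T47D-VC1 was 0.08 (SE 0.17, adjusted p = 0.884). The OSMR calls thus rest on the probe of the short variant, and the difference between the probes was not tested.

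LIFR, the chain for leukemia inhibitory factor, has 1 probe (chromosome 5, 38475942 to 38476001 on hg19), close to background. It gave 4.01, 3.63 and 5.01 in T47D-VC1, 10.01, 16.1 and 7.16 in T47D-PA5, and 13.5, 14.8 and 16.3 in T47D-PA6. It was well above background on 0 T47D-VC1 arrays, 1 T47D-PA5 array and 2 T47D-PA6 arrays. The T47D-VC1 arrays were the lowest, and T47D-PA6 was 1.19-fold higher by the approximate bound described for IL6R. The T47D-PA6 mean includes an array not well above background. For T47D-PA5 no fold is given, since its mean did not exceed the dimmest T47D-VC1 signals well above background.

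**Figure D2:**
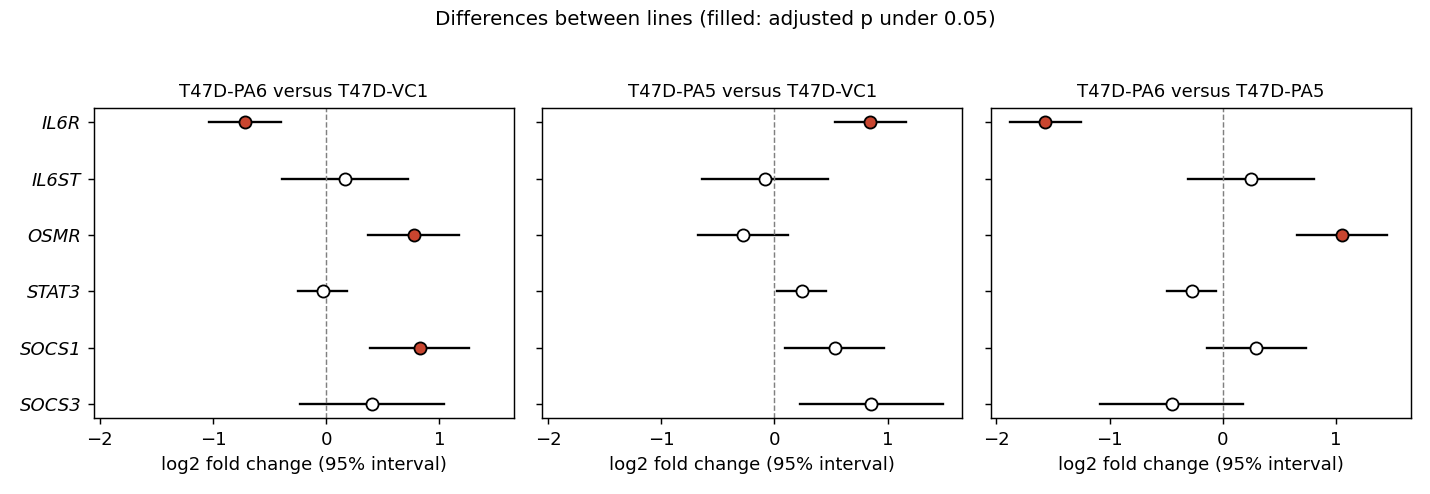
Log2 fold changes (horizontal axis, with 95% intervals from limma as bars) of the 6 tested genes (vertical axis) in the 3 comparisons. Filled points have an adjusted p-value under 0.05: IL6R in all 3 panels, OSMR in the 2 panels with T47D-PA6, and SOCS1 in T47D-PA6 over T47D-VC1.

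IL6ST, the chain shared by the whole family, was measured by 7 probes, all well above background on the 9 arrays. Probe a (chromosome 5, 55238513 to 55238572 on hg19) gave 5546, 2779 and 3073 in T47D-VC1, 3856, 3255 and 3154 in T47D-PA5, and 4540, 3973 and 3699 in T47D-PA6. Replicate 1 of T47D-VC1 was the highest of all 9 arrays, and the other T47D-VC1 replicates were the lowest. The mean was 3618 (SD 0.54) for T47D-VC1, 3408 (SD 0.16) for T47D-PA5 and 4056 (SD 0.15) for T47D-PA6, and no comparison was called. The log2 fold change of T47D-PA6 was 0.16 over T47D-VC1 (95% interval -0.39 to 0.72, adjusted p = 0.721) and 0.25 over T47D-PA5 (-0.30 to 0.81, adjusted p = 0.582). That of T47D-PA5 over T47D-VC1 was -0.09 (-0.64 to 0.47, adjusted p = 0.911).

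The sign of the difference for IL6ST probe a turned with the scan run. Within slide 1 T47D-PA6 differed from T47D-VC1 by -0.29 on the log2 scale, and within slide 3 by 0.32. For T47D-PA5 over T47D-VC1 the values were -0.52, 0.23 and 0.04 within slides 1, 2 and 3. Without T47D-VC1 replicate 1 the log2 fold change was 0.47 for T47D-PA6 and 0.22 for T47D-PA5, and without T47D-VC1 replicate 2 it was -0.03 for T47D-PA6, none of them called. In replicates 2 and 3 alone, T47D-PA6 was higher by 0.39 (adjusted p = 0.0172, with a range of 0.0172 to 0.968 over all 21 fits). That fit takes its spread only from replicates 2 and 3, which lay close together, and called 7469 of the 20106 genes tested. Its p-value is therefore not read as a result.

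**Figure D3:**
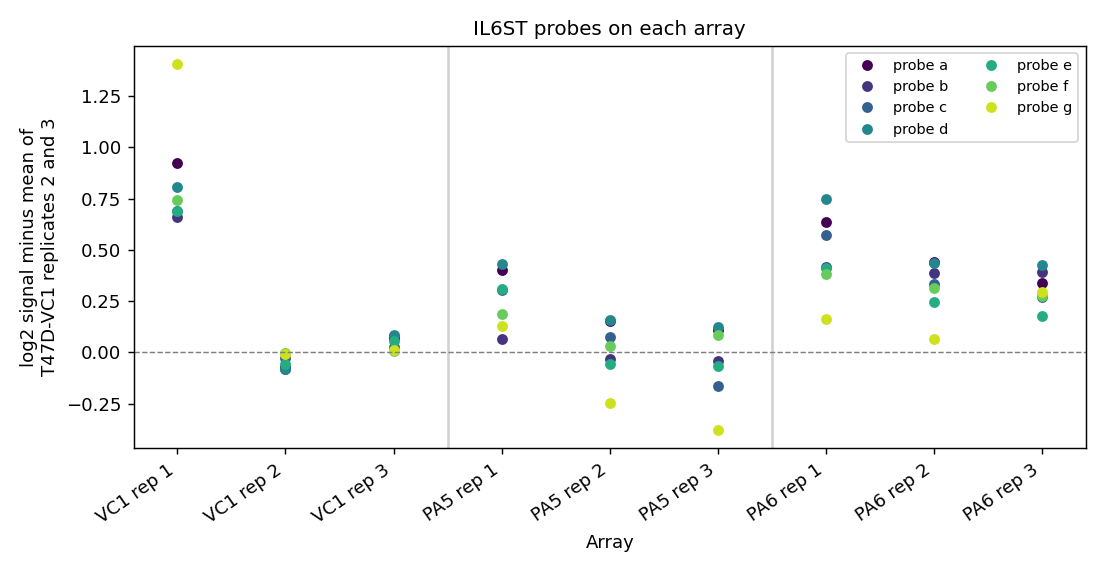
Log2 signal of the 7 IL6ST probes (vertical axis) on each array (horizontal axis), relative to the mean of T47D-VC1 replicates 2 and 3 for the same probe. All 7 probes were highest in T47D-VC1 replicate 1, and the T47D-PA6 arrays lay above zero on each of them.

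The other 6 IL6ST probes also had their highest signal in T47D-VC1 replicate 1. T47D-PA6 over T47D-VC1 was negative in the earlier and positive in the later scan run for all 7. T47D-PA5 over T47D-VC1 was negative in the earlier run for all 7, and in the later run it was positive for probes a, d and f and negative for probe b (-0.04), probe c (-0.05), probe e (-0.06) and probe g (-0.31). None of the 7 probes was called by limma in any comparison, and the count at an unadjusted p under 0.05 was 0 for T47D-PA6 over T47D-VC1, 0 for T47D-PA5 over T47D-VC1 and 1 for T47D-PA6 over T47D-PA5. Over probes b to g, T47D-PA6 differed from T47D-VC1 on the log2 scale from -0.29 (probe g) to 0.27 (probe d). Probe g was the one IL6ST probe whose mean was lower for T47D-PA6, and its SD in T47D-VC1 was 0.81. Probe b is also assigned by the files to a transcript of a pseudogene, so its reading may be shared and is uncertain.

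STAT3 was measured by 2 probes, whose values for T47D-PA6 over T47D-VC1 had opposite signs. Probe a (chromosome 17, 40474404 to 40474463 on hg19) gave 479.5, 506 and 488.8 in T47D-VC1, 607.9, 575.3 and 560.9 in T47D-PA5, and 521.9, 477.8 and 446.4 in T47D-PA6. T47D-PA5 was above both other lines without overlap, while T47D-VC1 and T47D-PA6 overlapped. The log2 fold change of T47D-PA5 over T47D-VC1 was 0.24 (95% interval 0.03 to 0.46, adjusted p = 0.264), that of T47D-PA6 over T47D-PA5 was -0.27 (-0.49 to -0.06, adjusted p = 0.114), and that of T47D-PA6 over T47D-VC1 was -0.03 (-0.25 to 0.19, adjusted p = 0.876). None was called.

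Probe b of STAT3 (chromosome 17, 40465923 to 40465982 on hg19) read 408.2, 421.4 and 328.7 in T47D-VC1, 510.5, 485.6 and 474.4 in T47D-PA5, and 541.2, 431.1 and 476.3 in T47D-PA6. Here T47D-VC1 was below both other lines, which overlapped each other. T47D-PA6 over T47D-VC1 was 0.32 (SE 0.13, adjusted p = 0.154), and T47D-PA5 over T47D-VC1 was 0.35 (SE 0.13, adjusted p = 0.241). T47D-PA6 over T47D-PA5 was -0.03 (SE 0.13, adjusted p = 0.928). Phosphorylation of STAT3 was not measured on these arrays.

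SOCS1 was read by 1 probe (chromosome 16, 11348384 to 11348443 on hg19), at 41.1, 24.7 and 26.1 in T47D-VC1, 44.4, 41.3 and 43.5 in T47D-PA5, and 46.1, 55.3 and 57.8 in T47D-PA6. The order was T47D-VC1, T47D-PA5, T47D-PA6 with no overlap, but replicate 1 of T47D-VC1 lay just under the lowest T47D-PA5 array. In that order the means were 29.8 (SD 0.40), 43.1 (SD 0.05) and 52.9 (SD 0.17). T47D-PA6 was 1.77-fold higher than T47D-VC1, a log2 fold change of 0.83 (SE 0.19, limma adjusted p = 0.0324). T47D-PA5 over T47D-VC1 was 0.53 (SE 0.19, adjusted p = 0.226) and T47D-PA6 over T47D-PA5 was 0.30 (SE 0.19, adjusted p = 0.391), so neighbours in this order were not called different.

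The SOCS1 difference between T47D-PA6 and T47D-VC1 was small in slide 1, at 0.17 on the log2 scale, and larger within slide 3, at 1.11. With slide as a block it was 0.76 and not called (adjusted p = 0.0629), and it was called in 10 of 21 other fits in all (adjusted p of 0.000609 to 0.182). The call was lost without replicate 2 or 3 of T47D-VC1 (adjusted p of 0.0983 and 0.117), of T47D-PA5 (0.0566 and 0.0585) or of T47D-PA6 (0.106 and 0.114). It was also lost with normexp correction, where the log2 fold change was 0.29 (adjusted p = 0.0775), with no filter (0.0828), with the 2 lines alone (0.0828) and with the unpaired test (0.182). For T47D-PA5 over T47D-VC1 the values within slides 1, 2 and 3 were 0.11, 0.74 and 0.74. Without T47D-VC1 replicate 1 this difference was 0.76 and was called (adjusted p = 0.0281, with a range of 0.00413 to 0.53 over 21 fits).

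SOCS3, the direct target and inhibitor of STAT3 signaling, was read by 1 probe (chromosome 17, 76353127 to 76353186 on hg19). Its signals were 82.4, 59.1 and 59.7 in T47D-VC1, 131.7, 118.4 and 110.5 in T47D-PA5, and 141.2, 66.5 and 71.7 in T47D-PA6. T47D-PA5 lay above T47D-VC1 without overlap, and T47D-PA6 was divided, with replicate 1 the highest of all arrays and the other replicates near T47D-VC1. The mean was 66.3 (SD 0.27) for T47D-VC1, 119.9 (SD 0.13) for T47D-PA5 and 87.6 (SD 0.60) for T47D-PA6.

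No SOCS3 comparison was called in the fit over all arrays. T47D-PA5 was 0.86 higher than T47D-VC1 on the log2 scale (SE 0.28, adjusted p = 0.182), T47D-PA6 was 0.40 higher (SE 0.28, adjusted p = 0.403), and T47D-PA6 over T47D-PA5 was -0.45 (SE 0.28, adjusted p = 0.362). Within slides 1, 2 and 3 T47D-PA5 differed from T47D-VC1 by 0.68, 1.002 and 0.89, and with slide as a block the adjusted p-value was 0.0536. T47D-PA6 differed from T47D-VC1 by 0.78 and 0.21 within slides 1 and 3, and from T47D-PA5 by 0.10 and -0.68. Without T47D-PA6 replicate 1, SOCS3 was called for T47D-PA5 over T47D-VC1 (adjusted p = 0.0294, range 0.00247 to 0.434 over 21 fits) and for T47D-PA6 over T47D-PA5 (-0.80, adjusted p = 0.0206, range 0.00216 to 0.715).

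The study counts a gene as changed when its ratio to T47D-VC1 is above 2 or below 0.6, without a test, applied here to ratios of geometric means. Read from the brightest tested probe of each, none of the 6 genes passed in either direction in T47D-PA6 or T47D-PA5. For IL6R this depends on the probe, and for IL6R, SOCS1 and SOCS3 on single arrays. Without T47D-VC1 replicate 1 the log2 ratio was 1.06 for SOCS1 and -0.77 for IL6R in T47D-PA6, and 1.01 for SOCS3 in T47D-PA5. Each was past a limit, as was IL6R in T47D-PA6 without T47D-PA6 replicate 1 (-0.85). Of the probes that these genes were read from, IL6R probe a in T47D-PA6 came nearest to the lower limit, at a ratio of 0.608, and SOCS3 in T47D-PA5 nearest to the upper one, at 1.81. IL6R probe b, with a mean of 6.05 for T47D-PA6 and 16.3 for T47D-VC1, was past the lower limit by these signals. Its approximate bound of 1.38-fold does not reach that limit. The study's supplementary list of JAK-STAT pathway genes gives IL6R in T47D-PA6 a ratio of 0.37, near that of probe b. For OSMR it gives 1.71, near that of probe a. The mean over both IL6R probes, a log2 fold change of -1.08 that includes these dim signals, was also past the lower limit. Of all genes tested, 3.47% were above and 4.17% below these limits in T47D-PA6, and 2.17% and 1.76% in T47D-PA5.

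The promoters shown are those of the 3 genes called in at least 1 comparison. They are the 250 bases before the transcription start in the RefSeq table (GRCh38.p14), which holds all 7 genes in 10 windows. Capitals mark a match to GAAANNGAA, the core of interferon-stimulated response elements, or to TTCNNNGAA, the element that STAT dimers bind, on either strand.
IL6R promoter, chr1:154405093-154405342, plus strand: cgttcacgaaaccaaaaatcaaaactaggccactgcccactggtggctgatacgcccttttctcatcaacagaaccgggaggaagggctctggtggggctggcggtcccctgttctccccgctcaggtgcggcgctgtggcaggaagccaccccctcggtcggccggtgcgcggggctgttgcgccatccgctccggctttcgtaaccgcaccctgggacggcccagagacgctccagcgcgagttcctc
OSMR promoter, chr5:38845762-38846011, plus strand: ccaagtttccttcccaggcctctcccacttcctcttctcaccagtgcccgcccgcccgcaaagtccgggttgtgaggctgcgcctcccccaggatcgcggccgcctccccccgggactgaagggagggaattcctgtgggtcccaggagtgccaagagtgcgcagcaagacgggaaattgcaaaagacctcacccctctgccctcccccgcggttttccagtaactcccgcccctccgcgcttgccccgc
SOCS1 promoter, chr16:11256205-11256454, minus strand: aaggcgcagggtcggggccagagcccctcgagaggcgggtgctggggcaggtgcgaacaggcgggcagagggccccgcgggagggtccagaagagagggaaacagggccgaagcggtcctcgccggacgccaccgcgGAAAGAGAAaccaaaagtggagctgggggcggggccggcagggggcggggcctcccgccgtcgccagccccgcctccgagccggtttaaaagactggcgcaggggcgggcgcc

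GAAANNGAA was found in SOCS1, beginning 113 bases before the start, and in none of the other 9 windows. TTCNNNGAA was in 2 of the 10 windows, both among the 3 starts listed for LIFR, and in neither window of SOCS3. Of all 35116 windows of this length in the table, 6.88% held GAAANNGAA and 6.57% held TTCNNNGAA. These are matches of letters only, in which no factor's binding was measured.

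Of 60 other genes of the pathway, taken as 8 lists, 50 were tested. In T47D-PA6 over T47D-VC1, 5 were called higher and 1 lower, beside 10.03% of all genes called. The 5 include LIF, which was near background on most T47D-VC1 arrays and passed the filter through the other lines. Its call is therefore not read as a result. The median log2 fold change of the 50 was -0.0042, beside -0.03 for all genes tested. In T47D-PA5 over T47D-VC1, 1 was called higher and none lower, beside 1.67% of all genes (median -0.03, as for all genes). Between T47D-PA6 and T47D-PA5, 3 were called higher in T47D-PA6 and 2 lower, beside 9.71% of all genes (median 0.03, and -0.00 for all genes). An unadjusted p under 0.05 was found for 12, 10 and 15 of the 50 in these comparisons, and for 26.56%, 15.58% and 24.88% of all genes. Some of the 50, such as LIF, were near background in a line and tested through another, so the counts rest partly on dim signals.

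**Figure D4:**
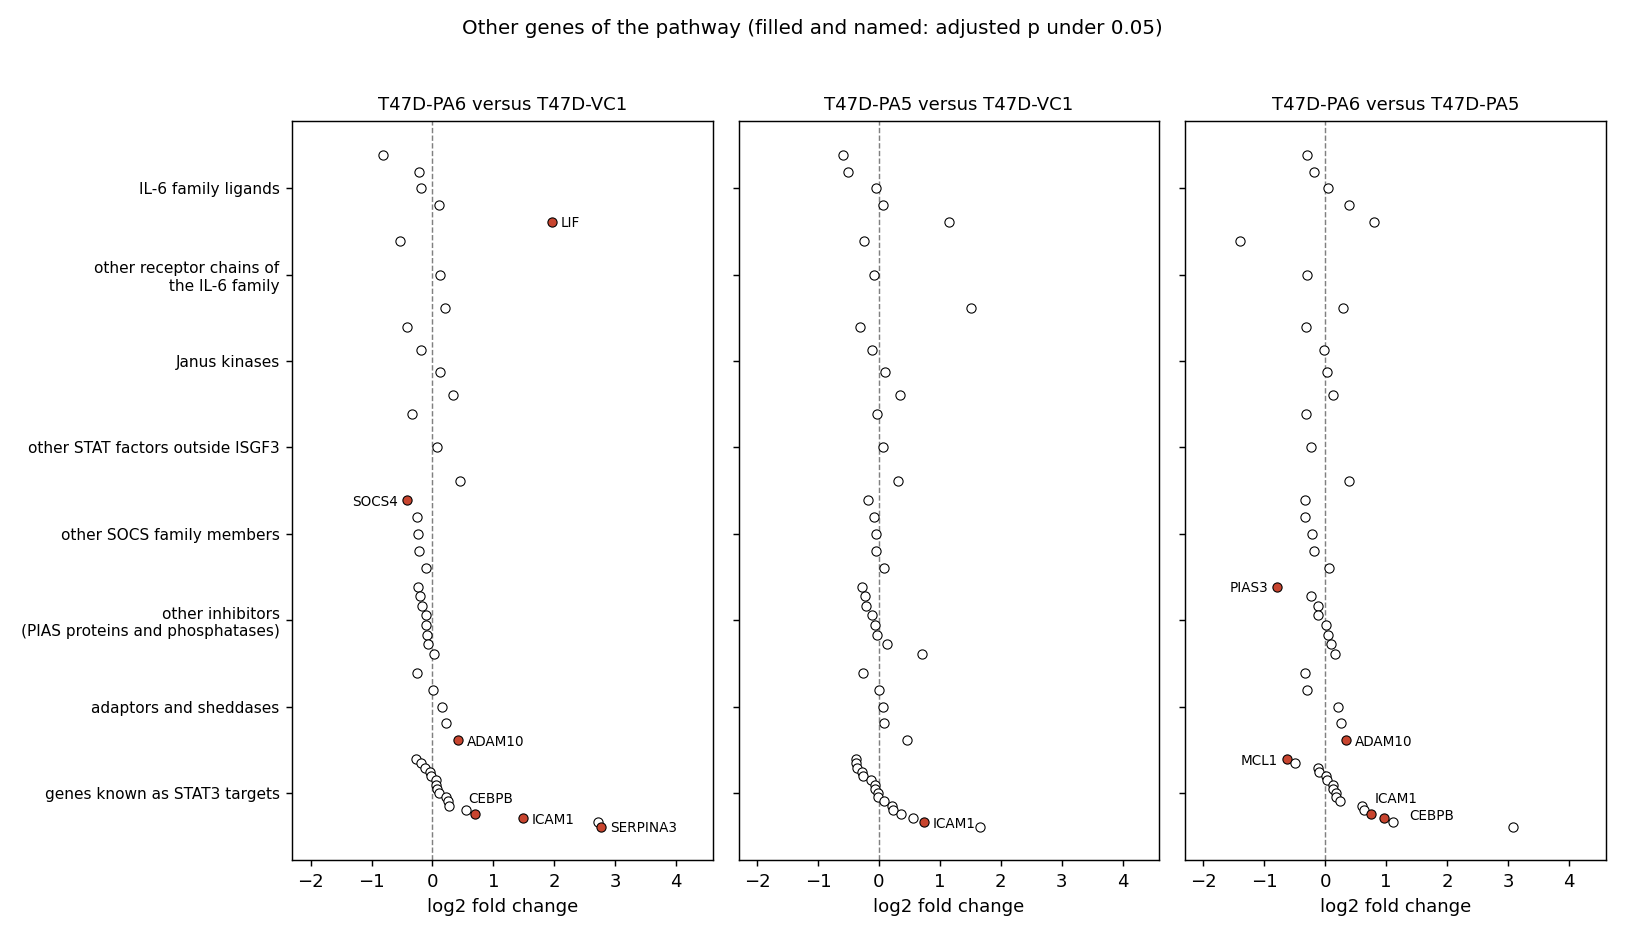
Log2 fold changes (horizontal axis) of the 50 tested genes in the 8 pathway lists (vertical axis) in each comparison. Each point is 1 gene, and filled, named points have an adjusted p-value under 0.05. ICAM1 is filled in all 3 panels. LIF, filled for T47D-PA6 over T47D-VC1, was near background on most T47D-VC1 arrays.

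Among 10 ligands of the family, 5 were tested. LIF, leukemia inhibitory factor, gave 7.27, 16.0 and 8.89 in T47D-VC1, 24.9, 21.9 and 20.8 in T47D-PA5, and 26.5, 45.5 and 50.03 in T47D-PA6, and was well above background on 1 of the 3 T47D-VC1 arrays and on all others. T47D-PA6 was above both other lines on every array. With each T47D-VC1 array raised, if dimmer, to its dimmest signal well above background, T47D-PA6 was 3.03-fold higher than T47D-VC1. This approximate bound was not tested. The log2 fold change of T47D-PA6 over T47D-PA5 was 0.81 (SE 0.32, adjusted p = 0.162). CTF1, a ligand of this list, was not called, with means of 2095 for T47D-VC1, 2040 for T47D-PA5 and 1799 for T47D-PA6. IL6, OSM, EBI3 and IL31 were not well above background on any array, and IL11 was on 5 of 9.

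For the 3 lists that follow, 10.03%, 1.67% and 9.71% of all genes were called, so that counts of 0 in so few genes are not results about a list. Of 4 other receptor chains 3 were tested and 0 called by limma in any comparison, and 1, 1 and 2 had an unadjusted p under 0.05 in T47D-PA6 over T47D-VC1, T47D-PA5 over T47D-VC1 and T47D-PA6 over T47D-PA5. Of 4 Janus kinases, all tested, 0 were called, and 1, 0 and 0 had an unadjusted p under 0.05 in the same order. Of STAT4, STAT5A, STAT5B and STAT6, 3 were tested and 0 called, and 0, 1 and 0 had such a p. In T47D-VC1, T47D-PA5 and then T47D-PA6, the means of the receptor chain IL27RA were 522.5, 442.3 and 361.2. Those of the kinase JAK3 were 2269, 2894 and 2850, and those of STAT6 were 8429, 8291 and 6695.

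Beside the counts of inhibitors, adaptors and sheddases, the shares of all genes called are again 10.03%, 1.67% and 9.71%. SOCS4 fell in T47D-PA6 against T47D-VC1 (log2 fold change -0.42, SE 0.10, adjusted p = 0.0399), the 1 call among 5 tested of 6 other SOCS family members. PIAS3, which binds and inhibits STAT3, had means of 3092 for T47D-VC1, 5048 for T47D-PA5 and 2930 for T47D-PA6, a log2 fold change of -0.78 for T47D-PA6 over T47D-PA5 (SE 0.17, adjusted p = 0.0247). The other 7 PIAS proteins and phosphatases were not called, including PTPN1, with means of 3749, 4124 and 3514.

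Of 5 adaptors and sheddases, ADAM10, which cleaves membrane proteins including IL6R, rose in T47D-PA6 from 741.4, 720.6 and 755.8 in T47D-VC1 to 962.9, 1002 and 985.1. The T47D-PA5 arrays were between, at 777.1, 779.6 and 770.2. The log2 fold change was 0.41 over T47D-VC1 (SE 0.08, adjusted p = 0.0177) and 0.34 over T47D-PA5 (SE 0.08, adjusted p = 0.0336). SHC1, an adaptor of this list, had means of 3188, 4412 and 3572 and was not called.

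Of 19 genes known as STAT3 targets, 17 were tested, and 3 were called higher and none lower in T47D-PA6 over T47D-VC1, beside 10.03% of all genes, with a median log2 fold change of 0.12. In T47D-PA5 over T47D-VC1, 1 was called higher, beside 1.67% of all genes, and in T47D-PA6 over T47D-PA5, 2 were called higher and 1 lower, beside 9.71%. These genes also respond to other factors. ICAM1, a leukocyte adhesion molecule, gave 219.9, 193.4 and 165.8 in T47D-VC1, 302.3, 335.8 and 319.6 in T47D-PA5, and 526, 527.5 and 550.7 in T47D-PA6. Its 3 groups were in the order T47D-VC1, T47D-PA5, T47D-PA6 without overlap, and all 3 comparisons were called. T47D-PA6 was 2.79-fold higher than T47D-VC1 (log2 fold change 1.48, SE 0.12, adjusted p = 0.000504) and 1.68-fold higher than T47D-PA5 (0.75, SE 0.12, adjusted p = 0.00792), and T47D-PA5 was 1.66-fold higher than T47D-VC1 (0.73, SE 0.12, adjusted p = 0.0223).

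SERPINA3, an acute-phase protease inhibitor, gave 327.9, 234.7 and 203.4 in T47D-VC1, 503.1, 932.4 and 1049 in T47D-PA5, and 3565, 1137 and 1217 in T47D-PA6. Replicate 1 of T47D-PA6 was far above the other replicates of its line. T47D-PA6 was 6.81-fold higher than T47D-VC1 (log2 fold change 2.77, SE 0.46, adjusted p = 0.00956), and its difference from T47D-PA5 was not called (1.11, SE 0.46, adjusted p = 0.179). CEBPB, a transcription factor of the acute-phase response, rose in T47D-PA6 by 0.70 over T47D-VC1 (SE 0.14, adjusted p = 0.0174) and by 0.97 over T47D-PA5 (SE 0.14, adjusted p = 0.00576). MCL1, a survival factor, was lower in T47D-PA6 than in T47D-PA5 (-0.63, SE 0.14, adjusted p = 0.0291). MUC1, a mucin of luminal cells, was not called, with means of 16200, 23840 and 16950.

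The luminal label was checked against 9 markers, ESR1, PGR, GATA3, FOXA1, KRT8, KRT18, KRT19, EPCAM and CDH1, and all were well above background on the 9 arrays. PGR was called, with a log2 fold change of -1.07 for T47D-PA6 over T47D-VC1 (adjusted p = 0.00724) and -0.69 over T47D-PA5 (adjusted p = 0.0367), and the other 8 markers were not called. Of 5 fibroblast markers 1 was tested, COL1A1, with a log2 fold change of -0.50 for T47D-PA6 over T47D-VC1 (adjusted p = 0.0198), and of 3 endothelial markers 2 were tested and 0 called. Of 5 leukocyte markers, CD3E and CSF1R were not well above background on any array, LYZ had no value, and PTPRC and CD14 were tested. CD14 was called, with means of 47.8 for T47D-VC1, 115.1 for T47D-PA5 and 166.7 for T47D-PA6 and a log2 fold change of 1.80 for T47D-PA6 over T47D-VC1 (SE 0.29, adjusted p = 0.00821). PTPRC was not called, with means of 20.3, 20.8 and 18.0 (log2 fold change -0.17 for T47D-PA6 over T47D-VC1, adjusted p = 0.733), so the sum of the leukocyte markers rose through CD14. They summed to 76.2 to 85.3 on the T47D-VC1 arrays, 137.2 to 168.2 on the T47D-PA5 arrays and 131.9 to 248.9 on the T47D-PA6 arrays, and their part in the results was not tested. In bulk RNA, fewer cells of a kind and less RNA per cell cannot be told apart.

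For each of the 6 genes, the genes with the most similar signal over the 9 arrays were sought among 18234 others that were well above background on all of them. The likeness is Pearson's r of log2 signal, a description over arrays that share 3 lines and 2 scan runs. IL6R was most like FLVCR1-DT (r = 0.99), ZDHHC20 (0.99) and ALYREF (0.99). OSMR was most like SLC22A23 (0.99), FOXD2 (0.99) and LOC101927609 (0.99). SOCS1 was most like KLF13 (0.98), GRK5 (0.98) and H4C11 (0.98).

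The genes most like SOCS3 were LOC101927440 (r = 0.97), HOXB9 (0.97) and TLK2 (0.96). Among the genes most like STAT3 were PLXND1 (0.97) and B3GALNT2 (0.96). IL6ST was most like HERC2 (0.97), AP2A2 (0.97) and GPER1 (0.96).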

How the data were processed

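Total RNA of the 9 samples was labeled with Cy3 and hybridized to SurePrint G3 Human Gene Expression v3 arrays. The authors deposited, for each array, spot intensities that Feature Extraction had background-subtracted, and the intensities after their own quantile normalization in R, separately. Per the file headers the Feature Extraction version was 10.7.1.1, and the submitters' processing notes name 9.5.1.1. The values of the authors' table are linear intensities with a median of 9.06 on every array, and after log2 their correlation with the values used here was 1.

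Of 62976 spots per array, 60901 were not controls and stand for 58201 probes. Feature Extraction's outlier spots (46 to 117 per array) were left out, a probe's spots were averaged as log2 values, and quantile normalization was applied, as in the study. No spot was saturated. From 44.0% to 48.0% of the probes were well above background, with a lowest such signal of 9.59 to 15.2. Gene names were updated with a RefSeq table, in which 31127 probes were found through their symbol, 3343 through an accession and 496 through a synonym, while 23235 kept the files' name. Tested were 26171 probes, well above background on all 3 arrays of some line, and the 20106 genes read from the brightest of them. Probe positions are on hg19, from the files. Precision is limited by the number of arrays, 3 per line.

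Lines were compared with limma 3.58.1 (lmFit and eBayes) in R 4.3.3 with version 1.17.8 of data.table, in 1 fit over 9 arrays with Benjamini-Hochberg adjustment over all genes, and for further probes of a gene over all tested probes. The fit was tested on simulated data, where it called most but not all of the changed genes and few others. The simulated arrays had independent noise with no slide, scan run or replicate effect. Their planted changes were larger than the members' called differences from T47D-VC1. The simulation therefore does not give error rates for the arrays used here. The members and lists were chosen with earlier results of these data known. Besides the 7 genes, those named are, of each list, the called genes and the gene with the highest mean signal, the 3 genes most like each tested member, and markers of cell types. Results of some genes that this rule takes in are not reported, and the counts of the lists and the sums of markers are without them. IL6, OSM, EBI3, IL31 and IL11 are named as the ligands not tested, after their values were seen.

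Replicate numbers are from the labels. Deviations of same-numbered arrays from their line means correlated at 0.337, 0.132 and 0.242 between T47D-PA6 and T47D-VC1. Between T47D-PA6 and T47D-PA5 the values were 0.273, 0.166 and 0.168. For replicate 2 the array most alike in the other line never bore the same number. The replicate 1 arrays share a slide and a scan run, so these values do not establish pairing by number. The reported values are from a fit with no block, and replicate number as a block was an alternative. A fold against a line with no array well above background, or for LIF with 1 such array, is given as an approximate bound. It was computed per array, from that line's signal or the array's dimmest well-above-background signal, whichever was higher. The study's definition was applied to ratios of geometric means.

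Alternatives tried were, for scaling, a shift to the 75th percentile, normexp correction (offset 50) and the table that the authors normalized. For probes, they were no filter, a stricter one, the mean over a gene's tested probes and each probe by itself. For the fit, they were slide or replicate number as a block, either scan run alone, leaving out single arrays, a trend of variance with intensity, the compared lines alone, and the unpaired test that the methods name.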

Additional observations from a re-analysis of the deposited data

Results flagged for a closer look

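Several differences between lines were unlike between the scan runs, of which the earlier holds 1 array per line and the later holds 2. The genes below were picked by a limma interaction of line and scan run, or by arrays on opposite sides. Its p-values are not given, since they take all their spread from replicates 2 and 3. Over all genes, these differed by a median of 0.085 to 0.11 on the log2 scale within a line, while replicate 1 differed from them by 0.21 to 0.27. The differences below are therefore values with no test, and each rests on 1 array per line in the earlier run. Since replicate 1 stood apart over all genes, they are not particular to these genes.

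SOCS1 in T47D-PA6 over T47D-VC1 was 0.17 in the earlier and 1.15 in the later run, a difference of -0.99. For T47D-PA5 over T47D-VC1 SOCS1 was 0.11 and 0.74, a difference of -0.63. In both, replicate 1 of T47D-VC1 stood above its other replicates.

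IL6ST, read from probe a, changed sign. T47D-PA6 over T47D-VC1 was -0.29 in the earlier and 0.39 in the later run, a difference of -0.68, and T47D-PA5 over T47D-VC1 was -0.52 and 0.13, a difference of -0.66. Over the other probes, T47D-PA5 over T47D-VC1 did not change sign for probes b, c, e and g, at -0.04, -0.05, -0.06 and -0.31 in the later run.

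SOCS3 in T47D-PA6 over T47D-PA5 was 0.10 in the earlier and -0.73 in the later run, a difference of 0.83. Replicate 1 of T47D-PA6, at 141.2, stood above its other replicates, at 66.5 and 71.7. STAT3 probe a in T47D-PA6 over T47D-VC1 was 0.12 and -0.11, a difference of 0.23, with the arrays of the 2 runs on opposite sides. Scan run, slide and replicate 1 cannot be told apart here.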

How the results depend on the processing

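Of the alternatives for the 6 genes that have a test, 364 kept direction and side of the threshold, 42 lost a call, 9 gained one and 8 reversed. Most of the 364 are of comparisons that the main fit did not call, so their number is no measure of how stable the calls were. Of the 42 losses, 8 were of IL6R, 11 of OSMR and 11 of SOCS1 in T47D-PA6 over T47D-VC1. Another 10 were of IL6R in T47D-PA5 over T47D-VC1 and 2 of OSMR in T47D-PA6 over T47D-PA5. Of those with no test, the earlier scan run alone, 9 stayed within the spread between replicates, 6 moved and 3 reversed. The cause was not tested unless named.

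Between T47D-PA6 and T47D-VC1, limma called 3 of the 6 genes and 2017 of all genes. With the 75th percentile shift 1 of the 6 was called (1964 of all genes), with normexp correction 1 (2375 of all genes), with the unpaired test 0 and with the 2 compared lines alone 1. Of all genes, 1285 were called with no filter, over more genes tested, 7469 in the later scan run alone, 432 by the unpaired test and 1146 with the 2 lines alone. With single arrays left out the counts ran from 0 to 3 and from 703 (without T47D-PA6 replicate 3) to 2768 (without T47D-PA6 replicate 1).

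For T47D-PA5 over T47D-VC1, 1 of the 6 and 335 of all genes were called. The count of the 6 was 0 with no filter, 3 in the later run alone, 0 by the unpaired test and 0 with the mean over probes. The count of all genes was 198 with no filter, 4309 in the later run alone, 39 by the unpaired test and 608 with slide as a block. With single arrays left out the ranges were 0 to 2 and 99 (without T47D-PA5 replicate 3) to 621 (without T47D-PA6 replicate 1).

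For T47D-PA6 over T47D-PA5, 2 of the 6 and 1952 of all genes were called. The later run alone gave 5 and 7142, the unpaired test 1 and 790, and no filter 1262 of all genes. With single arrays left out the ranges were 2 to 3 and 726 (without T47D-PA6 replicate 2) to 2950 (without T47D-PA6 replicate 1).

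Some signs of log2 differences reversed. In the earlier scan run alone, 1 array per line, T47D-PA6 over T47D-VC1 was -0.29 for IL6ST and 0.12 for STAT3, and SOCS3 in T47D-PA6 over T47D-PA5 was 0.10. In the later run IL6ST in T47D-PA5 over T47D-VC1 was 0.13. Other probes gave -0.29 for IL6ST (probe g) and 0.32 for STAT3 (probe b) in T47D-PA6 over T47D-VC1, and 0.076 for OSMR (probe b) in T47D-PA5 over T47D-VC1. The mean over probes gave 0.15 for STAT3 in T47D-PA6 over T47D-VC1. With single arrays left out, T47D-PA6 over T47D-VC1 ran from -0.026 (without T47D-VC1 replicate 2) to 0.47 for IL6ST and from -0.089 (without T47D-PA6 replicate 1) to 0.023 (without T47D-PA6 replicate 3) for STAT3, and T47D-PA5 over T47D-VC1 ran from -0.28 to 0.22 (without T47D-VC1 replicate 1) for IL6ST.

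With replicate number as a block, 3, 1 and 2 of the 6 genes were called, and no call of a member changed. Of all genes 2617, 490 and 2427 were called. Between T47D-PA5 and T47D-VC1 same-numbered deviations correlated at 0.21, 0.099 and 0.124, and pairing by number was not established there either. LIFR was tested with no filter alone. There the limma adjusted p was 0.0242 for T47D-PA6 over T47D-VC1, 0.14 for T47D-PA5 over T47D-VC1 and 0.552 for T47D-PA6 over T47D-PA5. LIFR was well above background on 0 T47D-VC1 arrays, so this fit used dim signals and is not read as a call. Signal over background limits LIFR and IL6R probe b.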
